A study of Mus musculus with 6 samples.

Results

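Bdnf, the neurotrophins Ntf3 and Ntf5, the receptors Ntrk2, Ntrk3 and Ngfr, and the co-receptors Sort1 and Sorcs2 were followed as 1 family of 8 genes among the 52550 genes listed for each library. The genes were chosen by symbol, as neurotrophins, Trk receptors, p75 and sortilin family co-receptors. The set was proposed with the sham and TBI values of these same libraries in view, so the levels of the family are a description and carry no p-value of their own. All 8 passed the filter on low counts.

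Hippocampal RNA was sequenced in 3 sham animals (Sham1 to Sham3) and in 3 animals with TBI (TBI1 to TBI3), 1 library for each. The mice were males of the strain C57BL / 6 by the labels and C57B6/J by the methods of the study, 8 to 10 weeks old, and all were sampled 24 h after surgery. TBI mice received a controlled cortical impact, in which a piston strikes the exposed cortex, after a craniotomy over the right parietal bone. Sham mice had the anesthesia and the craniotomy without the impact. The methods of the study describe a dissection that uncovered the hippocampus on both sides, and the whole hippocampus was studied, but they do not say which side or sides entered a library.

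Neurotrophins are secreted proteins that keep neurons alive and tune their synapses. They are made as precursors (proneurotrophins) and cut to mature dimers, which bind Trk receptor tyrosine kinases, BDNF and NT-4 acting on TrkB (Ntrk2) and NT-3 mainly on TrkC (Ntrk3). The uncut precursors bind p75 (Ngfr) together with a sortilin family co-receptor, a pairing known for its opposite effects on survival and synapse strength. In the hippocampus Bdnf is made mainly by excitatory neurons and is induced by their activity from several alternative promoters, while Ntf3 is best known from dentate granule cells.

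Bdnf (ENSMUSG00000048482.14) spans positions 109674700 to 109727007 of chromosome 2 (GRCm38, plus strand), with 11 annotated transcripts. RefSeq promoter windows on GRCm38.p6, each 250 bases before to 50 bases after a start site, were matched for 4 of the 8 genes and gave 11 windows, 7 of them for Bdnf. The counts are per gene, so the output of the separate Bdnf promoters could not be told apart. The windows were searched on both strands for the cyclic AMP response element TGACGTCA, its CGTCA arm, the E-box CACGTG and the letters GCGTGGGCG, TATAAA and CCAAT. The CGTCA arm, to which CREB family factors can bind, was in 1 of the 7 Bdnf windows, at -35 to -31 from the start at 109692436, and in 20.8% of 32851 windows of all genes. This is the window usually called promoter IV of Bdnf, the best studied of its activity-dependent promoters. The full element was in none of the 11 windows, and in 1.79% of all windows. The G and C content of the Bdnf windows ran from 38.7% to 58.0%, against a median of 52.7% over all windows. Of these, 3 windows are shown, with the CGTCA arm and the E-box in capitals, because they allow the starts of the 2 ligands with the most reads to be compared. The Bdnf windows are the first start of the gene, at chr2:109674450-109674749, and the one with the CGTCA arm, at chr2:109692186-109692485, both on the plus strand. The Ntf3 window is at chr6:126166695-126166994 on the minus strand and holds an E-box at -231 to -226, which 7.15% of all windows hold.
Bdnf first start: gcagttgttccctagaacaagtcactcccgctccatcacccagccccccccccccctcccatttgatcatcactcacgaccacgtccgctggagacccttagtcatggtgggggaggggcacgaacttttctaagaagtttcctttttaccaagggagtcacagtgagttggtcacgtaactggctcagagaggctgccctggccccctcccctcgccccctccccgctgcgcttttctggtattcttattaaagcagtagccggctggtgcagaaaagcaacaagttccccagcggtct
Bdnf start with the CGTCA arm: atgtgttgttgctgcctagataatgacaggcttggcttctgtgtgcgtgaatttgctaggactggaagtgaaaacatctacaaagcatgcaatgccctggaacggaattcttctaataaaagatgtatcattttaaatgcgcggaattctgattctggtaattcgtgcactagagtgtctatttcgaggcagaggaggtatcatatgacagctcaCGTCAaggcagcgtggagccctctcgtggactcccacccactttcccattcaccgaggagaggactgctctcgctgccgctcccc
Ntf3 first start: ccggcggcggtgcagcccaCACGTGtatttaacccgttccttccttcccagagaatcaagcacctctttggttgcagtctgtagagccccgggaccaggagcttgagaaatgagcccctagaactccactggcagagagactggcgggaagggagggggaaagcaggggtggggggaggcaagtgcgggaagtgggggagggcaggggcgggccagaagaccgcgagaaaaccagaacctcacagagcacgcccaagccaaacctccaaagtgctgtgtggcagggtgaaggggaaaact

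Of 19 activity-regulated genes, chosen as genes that synaptic activity induces along with Bdnf, 14 had promoter windows, and 11 of the 14 held the CGTCA arm in at least 1 window. The full element was found for 1 of them, Dusp1. The arm was counted here per gene, over 19 windows, while the 20.8% given above is per window. A share per gene over all genes was not computed. A match or its absence describes the letters of these windows only.

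The estimated counts summed to between 31630936 (TBI2) and 41771872 (Sham1), and the libraries were scaled by TMM, so that levels are CPM, counts scaled to a common library size. Markers of other brain regions set TBI1 and TBI3 apart. The 7 striatal markers, led by Ppp1r1b, summed to 3736 CPM in TBI1 against 133 to 141 CPM in sham, 148 CPM in TBI2 and 190.5 CPM in TBI3. The 4 cholinergic basal forebrain markers, led by Slc5a7, summed to 64.6 CPM in TBI1 against 1.07 to 5.94 CPM in the others. The 4 cerebellar markers, led by Car8, summed to 1478 CPM in TBI3 against 15.5 to 53.4 CPM in the others. Dentate granule cell markers (6 genes, led by Dock10) summed to 117 CPM in TBI1 and 202 to 360 CPM in the others, and CA3 markers (5 genes, led by Bok) to 147 CPM in TBI1 and 213 to 382 CPM in the others. Prox1, C1ql2, Dsp and Tdo2, 4 of the 6 dentate markers, were at their lowest in TBI1, while Dock10 was at its second highest there (84.8 CPM) and Plk5 lay within the sham range (8.28 CPM). As a mean log2 difference from sham, the dentate list stood at -2.30 in TBI1, -1.01 in Sham2 and between -0.03 and 0.86 in the other libraries. The 4 CA1 markers found, led by Mpped1, summed to 255 CPM in TBI3, 467 to 468 CPM in the other TBI libraries and 504 to 597 CPM in sham. By mean log2 difference from sham they stood at -0.75 (TBI1), -0.27 (TBI2) and -1.06 (TBI3). In TBI1 the CA1 marker Wfs1 was at its highest (276 CPM) and Fibcd1 at its lowest (13.1 CPM). Sham2 was low in oligodendrocyte markers (5 genes), at 2695 CPM against 7855 to 9856 CPM elsewhere. It was also the lowest in choroid plexus markers (5 genes, led by Ttr), at 50.3 CPM against 237 to 2333 CPM. The same held for thalamic markers (5 genes, led by Rora), at 76.3 CPM against 98.4 to 549 CPM, where TBI1 was next. Astrocyte markers differed in Sham2. Gfap (4055 CPM against 541 to 1478 CPM) and Aqp4 (401 CPM) were at their highest of all libraries, and Aldh1l1 (84.9 CPM) at its second highest. Slc1a2, the most abundant of them (2013 CPM), Slc1a3 (599 CPM) and Gja1 (99.2 CPM) were at their lowest. Pan-neuronal markers (5 genes, led by Snap25) were lower in every TBI library, at 3864 to 4058 CPM, than in any sham library, at 4234 to 4506 CPM. Their mean log2 difference from sham was between -0.17 and -0.10 in TBI. The members differed, with log2 fold changes of -0.61 for Map2 and -0.29 for Syt1, -0.01 for Rbfox3, 0.05 for Snap25 and 0.18 for Tubb3. Of these 5 markers Map2 alone had groups that did not overlap, at 433 to 555 CPM in TBI and 627 to 1015 CPM in sham. Endothelial markers (4 genes, led by Flt1) summed to 153 to 162 CPM in TBI and 114 to 151 CPM in sham, again without overlap, and higher in TBI. Here too the members differed, with log2 fold changes of 0.88 for Ly6c1, 0.03 for Flt1, 0.01 for Pecam1 and -0.13 for Cldn5. For each of these genes taken singly the groups overlapped. What part these differences in tissue had in the family's levels was not tested. For each family gene the log2 fold changes without TBI1 and without TBI3 are given. In bulk tissue, fewer cells of a type and less RNA per cell cannot be told apart.

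**Figure D1:**
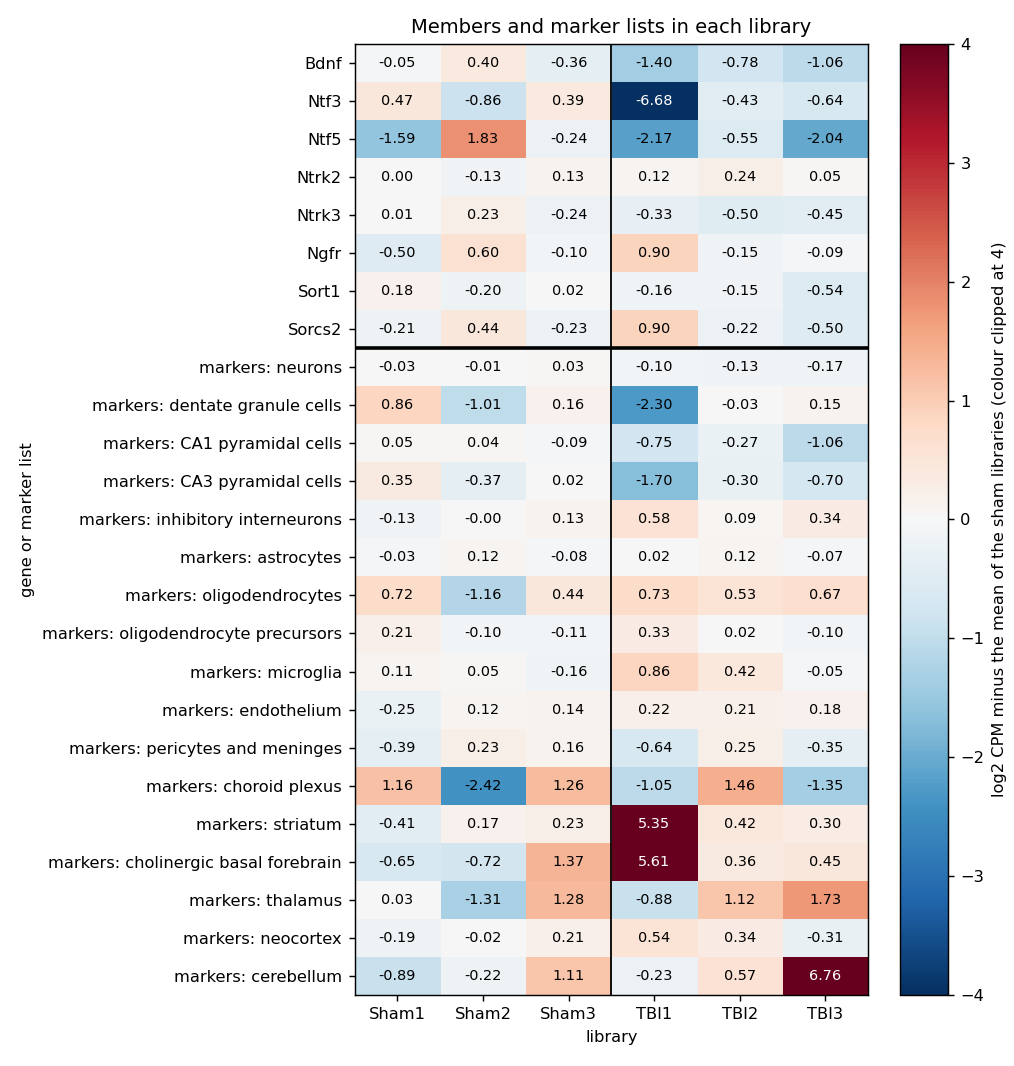
Each cell gives, for 1 library (columns), the log2 CPM of a family gene (top 8 rows) or the mean log2 CPM over a marker list (lower rows), minus the mean of the 3 sham libraries. TBI1 stands out in striatal (5.35) and basal forebrain (5.61) markers and low in dentate markers (-2.30), TBI3 in cerebellar markers (6.76), while Bdnf is below the sham mean in all TBI libraries, at -1.40, -0.78 and -1.06.

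Levels were compared between genes per kilobase of annotated exon, as CPM per kb. In sham hippocampus the order was led by Sort1, sortilin, a sorting receptor that also binds proneurotrophins, at 81.5 ± 10.5 CPM per kb (SD, n = 3 mice). Ntrk2, which encodes TrkB, followed at 35.0 ± 3.18 CPM per kb. Bdnf stood at 9.83 ± 2.63 CPM per kb, close to the proneurotrophin co-receptor Sorcs2 at 7.0 ± 1.97 CPM per kb. Ntrk3, which encodes TrkC, had 4.96 ± 0.808 and the ligand Ntf3 3.40 ± 1.46 CPM per kb. Ngfr, the p75 receptor, had 0.989 ± 0.399 CPM per kb, and Ntf5, which encodes NT-4, had 0.385 ± 0.445 CPM per kb. Neighbours in this order whose sham libraries overlapped were Bdnf and Sorcs2, Ntrk3 and Ntf3, and Ngfr and Ntf5. Within each sham library, though, the gene named first in each of these pairs stood higher. The other 4 neighbouring pairs did not overlap, though Sorcs2 and Ntrk3 were parted only by 5.82 against 5.78 CPM per kb. The annotated exons of Ntrk2 (19292 bases) and Ntrk3 (30170 bases) join 10 and 20 transcripts, so a level per length is low for any one of them.

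**Figure D2:**
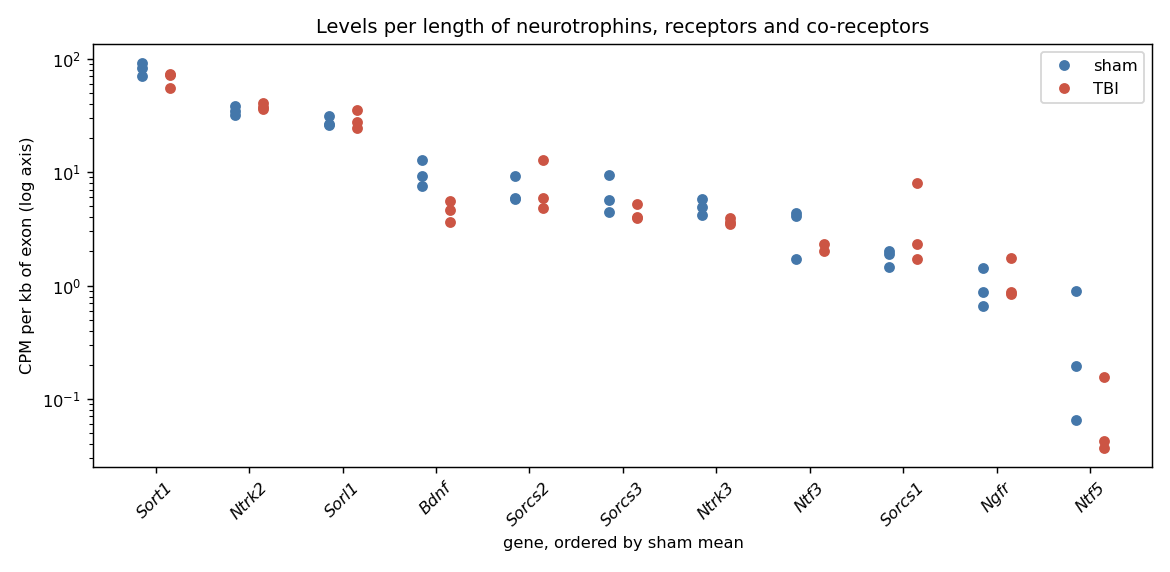
CPM per kb of exon on a log axis for the 8 family genes and for Sorl1, Sorcs1 and Sorcs3, ordered by sham mean, with 1 point per library (blue sham, red TBI). Sort1 and Ntrk2 lie above all 3 ligands in each library, and the 0 of Ntf3 in TBI1 cannot be drawn on this axis.

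Among the ligands, Bdnf was lower after TBI. It was counted 2341, 3164 and 1790 times in the sham libraries, by number, against 924, 1099 and 1021 times in the TBI libraries, or 57.8, 78.9 and 46.6 CPM against 22.6, 34.7 and 28.7 CPM. Every TBI library lay below every sham library, with Sham2 highest and TBI1 lowest. The mean was 61.1 ± 16.4 CPM for sham against 28.7 ± 6.05 CPM for TBI (SD, n = 3 mice each), 2.13 times lower, with a log2 fold change of -1.09 (standard error 0.24). Without TBI1 the log2 fold change was -0.95, without TBI3 -1.10, and with TBI2 as the only TBI library -0.82. The highest sham library counted most, since the value was -0.87 without Sham2, the library lowest in oligodendrocyte and choroid plexus markers. Each of these values was below 0. TBI1, lowest in Bdnf, was also lowest in dentate and CA3 markers. Sham2, highest in Bdnf, was the lowest of the sham libraries in both lists, at 202 CPM (dentate) and 249 CPM (CA3). In TBI2 the summed dentate (221 CPM) and CA3 (261 CPM) markers lay within the range of the sham libraries, the CA1 markers (467 CPM) lay below it, and Bdnf was at 34.7 CPM. Members of these lists differed, and Prox1 (56.5 CPM), Nectin3 (24.2 CPM) and Grik4 (27.2 CPM) lay below every sham library in TBI2. Of the 5 CA3 markers all had a log2 fold change below 0, with a median of -0.69, and 3 were at an unadjusted p under 0.05 in edgeR, against 4.29% of all genes. Their part in the lower Bdnf was not tested. In length-scaled level Bdnf in TBI, 4.61 ± 0.973 CPM per kb, came next to Ntrk3 and below Sorcs2, where in sham it had stood above the mean of both. The antisense gene Gm45346 shares 896 bases, 14.4% of the exonic bases of Bdnf, and had 10 to 93 counts, and since the strandedness of the libraries is not given in the sources used here, reads on those bases cannot be assigned to one strand.

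Ntf3 (ENSMUSG00000049107.13, chromosome 6, 126101412 to 126166910, minus strand), the ligand of TrkC, was listed at 0 in TBI1. Its counts were 302, 118 and 271 for the sham mice, against 0, 126 and 122 for the TBI mice. Sham2 lay beneath TBI2 and TBI3, so the groups overlapped. Means were 5.82 ± 2.5 CPM for sham against 2.47 ± 2.16 CPM for TBI (SD, n = 3 mice each), with a log2 fold change of -1.24 (standard error 1.26) that was -0.65 without TBI1, -1.57 without TBI3 and -1.78 without TBI2. A count of 0 in TBI1 allows a level of up to 0.0735 CPM if each count is 1 read (3 counts of the scaled total, counting error only), which these estimated counts do not ensure. Of 12815 genes with at least 100 counts in each of the other 5 libraries, Ntf3 alone was at 0 in TBI1, the library with the lowest dentate granule cell markers. By the same measure each other library had 0 or 1 such gene. Sham2, next lowest in the mean of those markers, also had the fewest Ntf3 counts of the sham libraries. In TBI2 and TBI3 the mean of those markers stood at -0.03 and 0.15, near the 0.16 of Sham3. Ntf3 was at 3.98 and 3.43 CPM there, against 7.06 CPM in Sham3. What part the dentate markers had in the level of Ntf3 was not tested.

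Ntf5 (ENSMUSG00000074121.3, chromosome 7, 45413695 to 45417179, plus strand), the gene of NT-4, was scarce. Its counts were 7, 95 and 20 for the sham mice, against 4, 13 and 4 for the TBI mice. TBI2 exceeded Sham1, so the groups overlapped, and Sham2 alone held most of the sham counts. The log2 fold change was -2.31 (standard error 1.10), and it was -0.75 without Sham2, -1.96 without TBI1 and -2.02 without TBI3. Summed per length, Bdnf made up 67.8%, 82.9% and 63.5% of the 3 ligands in the sham libraries against 99.0%, 69.3% and 69.3% in the TBI libraries, so that TBI1, with no Ntf3 counted, was the only TBI library outside the range of sham.

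**Figure D3:**
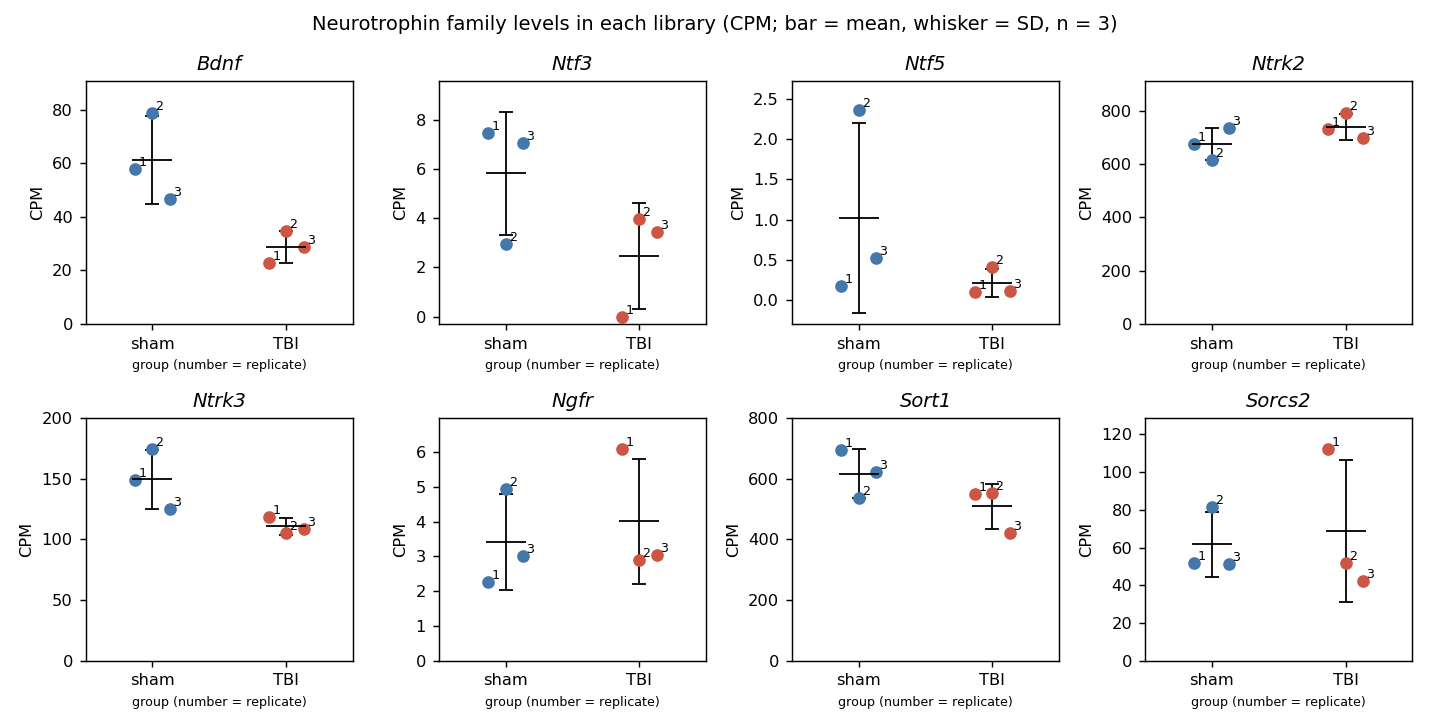
CPM of the 8 family genes in sham and TBI (one panel per gene, replicate numbers beside the points, bar and whisker for mean and SD, n = 3). Bdnf and Ntrk3 show TBI points that all lie below the sham points, and TBI1 is the highest point for Ngfr (6.08 CPM) and Sorcs2 (112 CPM).

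Ntrk2 (ENSMUSG00000055254.15, chromosome 13, 58806569 to 59133970), the TrkB gene, showed overlapping groups beside the lower Bdnf. Its counts were 27305, 24655 and 28294 for the sham mice, against 29850, 25087 and 24805 for the TBI mice. The means were 675 ± 61.3 CPM and 740 ± 48.6 CPM (SD, n = 3 each), and the log2 fold change was 0.13 (standard error 0.12), 0.14 without TBI1 and 0.17 without TBI3. Per length, there were 3.76, 2.51 and 5.09 times as much Ntrk2 as Bdnf in the sham libraries against 10.4, 7.36 and 7.83 times as much in the TBI libraries. The 10 annotated transcripts of Ntrk2 include forms with and without the kinase, which are not separated in these counts.

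Ntrk3 (ENSMUSG00000059146.12, chromosome 7, 78175959 to 78738012), the TrkC gene, was lower after TBI by a smaller amount. Its counts were 6047, 6991 and 4817 for the sham mice, against 4832, 3327 and 3868 for the TBI mice. In CPM the libraries had 149, 174 and 125 for the sham mice, against 118, 105 and 109 for the TBI mice, so each TBI library was below each sham library, by 125 against 118 at the nearest. The log2 fold change was -0.43 (standard error 0.15). It was -0.49 without TBI1, -0.43 without TBI3 and -0.31 without Sham2.

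Ngfr (ENSMUSG00000000120.6, chromosome 11, 95568818 to 95587735), the p75 receptor of cholinergic neurons and some glia, was counted most often in TBI1 and Sham2. Its counts were 92, 198 and 116 for the sham mice, against 248, 92 and 108 for the TBI mice. The groups overlapped, with TBI1 highest and Sham2 next. The log2 fold change was 0.23 (standard error 0.43) and turned to -0.20 without TBI1, and it was 0.40 without TBI3. The cholinergic markers were at their highest in TBI1 (64.6 CPM) and at their lowest in Sham2 (1.07 CPM), and their part in these values was not tested.

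Sort1 (ENSMUSG00000068747.14, chromosome 3, 108284082 to 108361511), the most abundant family gene per length, had counts of 28059, 21444 and 23920 for the sham mice, against 22406, 17521 and 15015 for the TBI mice. The means were 617 ± 79.4 CPM and 508 ± 74.8 CPM (SD, n = 3 each). TBI1 and TBI2 exceeded Sham2, so the groups overlapped, and the log2 fold change was -0.28 (standard error 0.16). The antisense gene Gm12523 shares 338 of its exonic bases (4.47%) and had 768 to 1691 counts. Without TBI3, the lowest library, the value was -0.17, and without TBI1 it was -0.34.

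Sorcs2 (ENSMUSG00000029093.14, chromosome 5, 36017180 to 36398139), a co-receptor of p75 for proneurotrophins, had counts of 2107, 3276 and 1968 for the sham mice, against 4575, 1634 and 1510 for the TBI mice. As for Ngfr, TBI1 was highest and Sham2 next, and the other TBI libraries lay near or below the lower sham libraries. Its mean was 61.6 ± 17.3 CPM for sham against 68.7 ± 37.8 CPM for TBI (SD, n = 3 mice each). The log2 fold change was 0.16 (standard error 0.39), -0.39 without TBI1 and 0.41 without TBI3. Sort1 exceeded Sorcs2 per length by 15.5, 7.61 and 14.1 times in sham and by 5.70, 12.5 and 11.6 times in TBI, lowest in the library with the striatal markers.

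**Figure D4:**
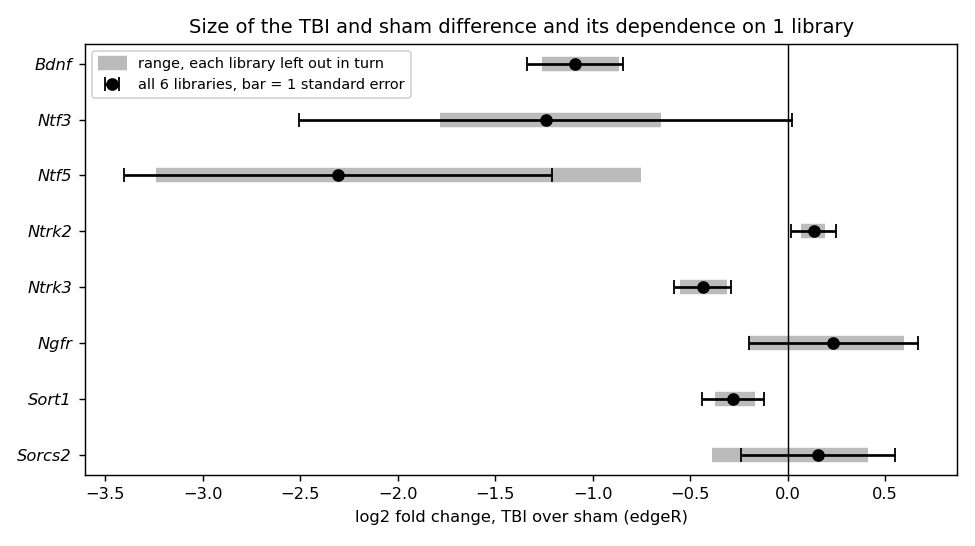
Log2 fold change of TBI over sham from edgeR for the 8 family genes, with points and black bars for the value and 1 standard error over all 6 libraries, and grey bands for the range when each library is left out in turn. The bands of Bdnf (-1.26 to -0.87) and Ntrk3 (-0.55 to -0.31) stay below 0, and those of Ngfr and Sorcs2 cross it.

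To be called, a gene needed a fold change beyond 1.5 (up) or 0.667 (down), with p below 0.05 before and below 0.1 after adjustment. With edgeR, 0 of the 8 genes and 0% of all 18795 tested met this. At an unadjusted p under 0.05 it held 2 of the 8 (Bdnf and Ntrk3, both lower), against 4.29% of all genes, and groups that did not overlap were found for the same 2, against 10.2% of all genes (5.45% lower and 4.77% higher). DESeq2 with its defaults called 1 of the 8, Bdnf, against 0.221% of all genes (0.0914% called as lower), as did DESeq2 on the edgeR gene set, against 0.266%, and had 3 of the 8 at an unadjusted p under 0.05, against 5.40%. Leaving out Sham1, Sham2, TBI1 or TBI3 ended the DESeq2 call of Bdnf, and leaving out Sham3 or TBI2 did not. Because the set was chosen with this comparison in view, nothing is read from these counts. The median log2 fold change of the 8 genes was -0.36, and over all genes tested it was 0.0091.

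Pathway genes outside the family were taken from 6 lists with 141 genes, of which 137 were tested. edgeR called 0 of the 137, with an adjusted p of 0.982 at the smallest, and 10 were at an unadjusted p under 0.05 (6 lower and 4 higher, 7.3% against 4.29% of all genes). The median log2 fold change was -0.054. DESeq2 with its defaults called 1, Akt2, against 0.221% of all genes, and placed 14 at an unadjusted p under 0.05, against 5.40% of all genes. The 10 genes are named below by list, each with an adjusted p of 0.982 from edgeR.

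Among the other ligands and receptors of the family, 0 of 4 tested genes had an unadjusted p under 0.05 in edgeR, and 1 did in DESeq2. Sorcs1, a relative of Sorcs2 that was named after its values were seen, had 12.4 to 17.0 CPM in the sham libraries and 67.6, 14.6 and 19.7 CPM in TBI1 to TBI3. TBI1 and, by less, TBI3 lay above all sham libraries. The log2 fold change was 1.17 (standard error 0.57), 0.18 without TBI1, 1.44 without TBI3 and -0.05 without both. Sorl1, the most abundant of this list, had 317 ± 34.7 CPM for sham against 333 ± 64.5 CPM for TBI (SD, n = 3 mice each). Its log2 fold change was 0.07, and -0.10 without TBI3.

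Of 16 tested genes for the processing and secretion of neurotrophins, 11 were lower and 5 higher, with a median log2 fold change of -0.11. Pcsk5, a proprotein convertase, was the 1 gene at an unadjusted p under 0.05, with 429, 770 and 488 counts for the sham mice, against 170, 308 and 152 for the TBI mice and a log2 fold change of -1.23 (standard error 0.41). Cpe, a sorting receptor and carboxypeptidase and the most abundant gene of the list, had 4105 ± 159 CPM for sham against 3606 ± 339 CPM for TBI (SD, n = 3 mice each). Its groups overlapped.

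Of 40 genes of Trk receptor signalling, 23 were higher and 17 lower, with a median of 0.042. Akt2, a kinase downstream of PI3K, rose from 54.1 ± 5.86 to 104 ± 17.5 CPM in the DESeq2 call (SD, n = 3 each), with an edgeR log2 fold change of 0.95 (standard error 0.16). Pik3r1, the regulatory subunit of PI3K, had a log2 fold change of 0.30 (standard error 0.10), and its groups did not overlap. Shc4, an adaptor of the Shc family, had -0.48 (standard error 0.16), and Rps6ka5, a kinase that phosphorylates CREB, had 0.63 (standard error 0.23) with overlapping groups. Without TBI1 and TBI3 the value of Akt2 was 0.90, that of Pik3r1 0.36, that of Shc4 -0.65 and that of Rps6ka5 0.13.

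Of 28 partners of p75, 18 were lower and 10 higher, and the 3 at an unadjusted p under 0.05 were all lower. They were Lingo1, a transmembrane partner of p75 in the Nogo receptor complex (-0.64, standard error 0.22), and the Nogo receptor relatives Rtn4rl1 (-0.54, standard error 0.14) and Rtn4rl2 (-1.05, standard error 0.29), values being log2 fold changes. Without TBI1 and TBI3 the values, in the same order, were -0.47, -0.42 and -0.60. In all, 5 of the 28 had every TBI library below every sham library, these 3 among them, against 5.45% of all genes. The list median was -0.041, and Kalrn, its most abundant gene by CPM, had 456 ± 158 CPM for sham against 318 ± 85.5 CPM for TBI (SD, n = 3 mice each). The log2 fold change of Kalrn was -0.52, and -0.15 without TBI1 and TBI3.

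Of 30 regulators of Bdnf transcription, 17 were lower and 13 higher, with a median of -0.059. Npas4, an activity-induced factor that binds Bdnf promoters, had counts of 407, 1022 and 101 for the sham mice, against 181, 83 and 39 for the TBI mice (log2 fold change -2.22, standard error 0.86). The value was -1.22 without Sham2 and -2.78 without TBI1. Sham3 lay below TBI1, so the groups overlapped. Within sham, Npas4 and Bdnf had the same order, Sham2 above Sham1 above Sham3, and within TBI the orders differed, TBI1 being highest for Npas4 and lowest for Bdnf. Camk4, a calcium-dependent kinase of CREB, had 6199, 4771 and 5950 counts for the sham mice, against 16745, 4569 and 10332 for the TBI mice (log2 fold change 0.98, standard error 0.36), high in the 2 libraries with striatal or cerebellar markers. It was 0.61 without TBI1, 0.96 without TBI3 and 0.02 without both. Camk2a, the most abundant of the list, had 3000 ± 921 CPM for sham against 2197 ± 441 CPM for TBI (SD, n = 3 mice each). The log2 fold change of Camk2a was -0.45, and -0.16 without TBI1 and TBI3.

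Of the 19 activity-regulated genes, 15 were lower and 4 higher, with a median log2 fold change of -0.43. None passed an unadjusted p of 0.05 in edgeR, where 4.29% of all genes did, while DESeq2 placed 2 there, against 5.40% of all genes. Groups that did not overlap were found for 0 of the 19, against 10.2% of all genes. Egr1, the most abundant of the list by CPM, had counts of 3923, 5204 and 4857 for the sham mice, against 10489, 2877 and 2306 for the TBI mice, so that TBI1 was its highest library where Bdnf was at its lowest. Its log2 fold change was 0.23 (standard error 0.50), -0.60 without TBI1 and 0.56 without TBI3.

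**Figure D5:**
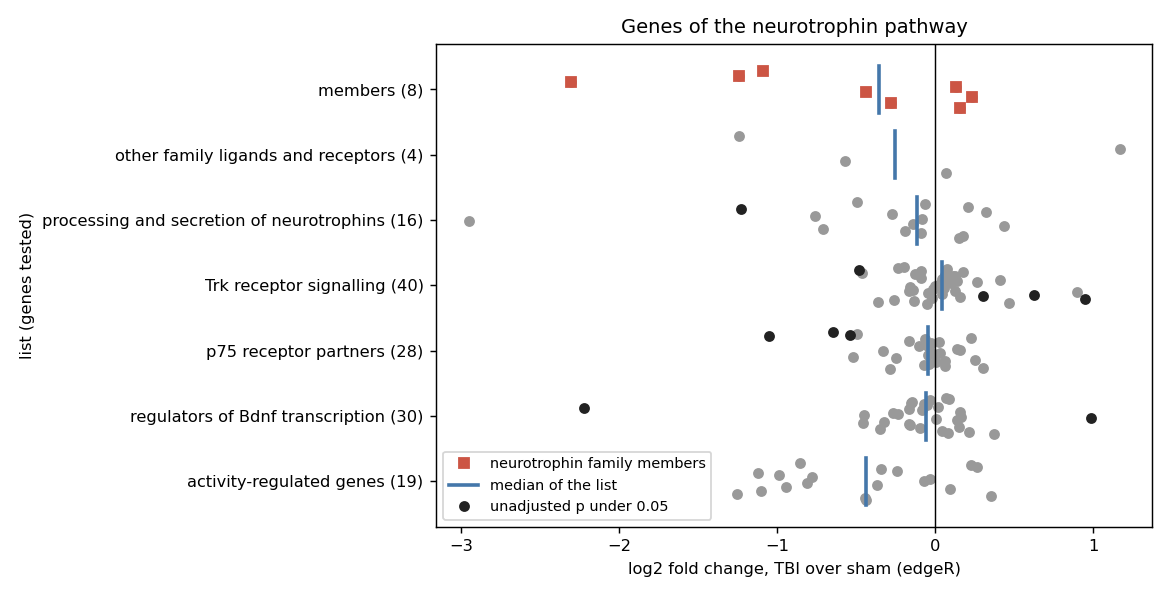
Log2 fold change of TBI over sham from edgeR for the 8 family genes (red squares) and the tested genes of 6 pathway lists (points, dark where the unadjusted p was under 0.05), with the list median in blue and the number tested in parentheses. The medians of the lists run from -0.43 for activity-regulated genes to 0.042 for Trk receptor signalling.

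The 5 genes whose log2 CPM followed that of Bdnf most closely over the 6 libraries were ranked by Pearson's r among 18794 genes, as a description, since the points share the group difference and the same libraries. They were Nptxr, the neuronal pentraxin receptor (r = 0.997), Mapk8ip3, a scaffold of axonal transport (0.995), Rtn4rl1 of the p75 partner list (0.989), Sstr3, a somatostatin receptor of neuronal cilia (0.986), and the unnamed gene Gm32834 (0.985). Nptxr had counts of 36408, 46823 and 27293 for the sham mice, against 14236, 18295 and 16357 for the TBI mice, a log2 fold change of -1.0. Like Bdnf, Nptxr was highest in Sham2 and lowest in TBI1.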

How the data were processed

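RNA-seq of hippocampus from 3 sham and 3 TBI mice was used. Per the labels and the study's methods, the authors used FastQC for read quality, HISAT2 for alignment (build GRCm38) and StringTie for quantification. They deposited, for each gene, estimated counts that are whole numbers and not normalized. The step from StringTie to counts, its annotation and the strandedness are not given in the sources used here. Low values pile up at multiples of 4 (the value 4 occurred 5109 times and 3 occurred 2325 times), so a count may not be 1 read, and the limit on the 0 of Ntf3 covers counting error only. Of 52550 identifiers, 52403 were matched to symbols and exon lengths in GENCODE vM21 (GRCm38). Promoter windows came from RefSeq (GRCm38.p6).

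Counts were filtered with filterByExpr, which kept 18795 genes, scaled by TMM and tested with edgeR 4.0.16 (quasi-likelihood, Benjamini-Hochberg over all genes) in R 4.3.3. DESeq2 1.42.0, the tool of the study, was an alternative. Log2 CPM used a prior count of 2, and a standard error is the absolute log2 fold change over the root of F. Scripts were tested on simulated data. Total counts of 31630936 to 41771872 limit the precision of rare genes such as Ntf5. Exact permutation of 3 against 3 libraries reaches a p of 0.1 at best, so none was run.

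Members, lists and tests were chosen with earlier results of these data known. The named genes were the 8 members, the 10 pathway genes with the smallest p under 0.05, the most abundant gene of each list, the 5 genes most like Bdnf and genes overlapping a member. Sorcs1 and single markers other than the most abundant of a list were named after their values were seen. Ptgs2 and Dusp4 were kept off the activity list because the study lists them. Nov, 1 of 5 CA1 markers, was not matched, and 4 of the 141 pathway genes did not pass the filter. Some genes that this rule names are not reported here. The lists of inhibitory interneurons, astrocytes, oligodendrocyte precursors, microglia, pericytes and meninges, and neocortex are given, as lists, only in the plot of members and marker lists. Alternatives were both DESeq2 settings, RLE factors, library totals, any count, counts divided by 4, a replicate block and each library left out, and, chosen after seeing the data, DESeq2 with each library left out and edgeR without TBI1 and TBI3. Replicate numbers were not used to pair the libraries in the main fit.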

Additional observations from a re-analysis of the deposited data

How the results depend on the processing

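Direction held for Bdnf, Ntf3, Ntf5, Ntrk2, Ntrk3 and Sort1 under all 20 alternatives that gave a value (for Ntf5, 19, since it did not pass the filter on counts divided by 4). Ngfr and Sorcs2 turned lower in TBI in the 3 fits without TBI1, and the part of the regional markers in that was not tested. Of the 159 log2 fold changes of family genes under the alternatives, 2 moved by more than the replicate SD, both for Ntf5 without Sham2 (-0.75 with edgeR and -0.77 with DESeq2, where the range without 1 library was -3.24 to -0.75 and -3.28 to -0.77). That SD is the gene's own and was 2.57 for Ntf3, 0.59 for Sorcs2 and 0.57 for Ngfr. The change of sign of Ngfr and Sorcs2 therefore did not count as a move. Nor did the change of Ntf3 from -1.24 to -0.55 without TBI1 and TBI3, so the count says little for variable genes. With the replicate block Ntf3 was at -1.82.

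The number of genes called among all genes was 0 with edgeR, 46 with DESeq2 defaults and 50 with DESeq2 run on the edgeR gene set. Without 1 library it ran from 0 to 1 with edgeR (1 without TBI1) and from 35 to 322 with DESeq2 (35, 63 and 122 without Sham1, Sham2 and Sham3, and 43, 322 and 47 without TBI1, TBI2 and TBI3), and it was 1 without TBI1 and TBI3. In the family it was 0 with edgeR, 1 with either DESeq2 setting and 0 to 1 with DESeq2 and 1 library left out. In the pathway lists it was 0 with edgeR, 1 with either DESeq2 setting and 1 to 5 with DESeq2 and 1 library left out. Pathway genes at an unadjusted p under 0.05 numbered 10, ran from 4 (without TBI3) to 16 (without TBI1) with edgeR and from 12 to 24 with DESeq2 (17 without Sham3 or TBI2), and were 5 without TBI1 and TBI3, where the spread came from sham alone. The cause was not tested.

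With the replicate block edgeR called 0 genes of all, 0 in the family and 0 in the pathway lists, with 11 pathway genes at an unadjusted p under 0.05. The main fit had also called 0 of each, so the block had no call to end and added none. Deviations from the group means correlated at -0.10, -0.065 and 0.15 for the same-numbered pairs 1, 2 and 3 over 18795 genes. For pairs with unlike numbers the values ran from -0.18 to 0.21. Such correlations cannot tell whether a replicate number stands for a shared batch.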
